A study of Bos taurus with 6 samples.

Results

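The BMP arm of primary bovine aortic endothelial cells was described from 7 genes: the inhibitors of DNA binding ID1, ID2 and ID3, the decoy receptor BAMBI, the secreted modulator BMPER and the ligands BMP2 and BMP4. The members were all probe sets that the array annotation assigns to these symbols, which gave 10 of the 24016 probe sets tested and 7 of 9162 named genes. ID1, ID2 and BMPER were each read by 2 probe sets and the other 4 genes by 1. Endothelial cells freed from bovine aorta with collagenase were grown in RPMI medium. Basal plates received no treatment, and treated plates received TGF-beta 1 at 5 ng/ml for 24 hours. Each group had 3 arrays, called basal 1 to 3 and treated 1 to 3, described by the submitters as triplicates from 3 cultures. Neither the animals behind these cultures nor any sharing of a culture between a basal and a treated plate is stated in the labels, so the p-values measure the spread between these arrays, whatever its source.

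Bone morphogenetic proteins (BMPs) are ligands of the TGF-beta family that signal through type I and type II serine kinase receptors to the transcription factors SMAD1, SMAD5 and SMAD9. In endothelium the type I receptor ACVRL1 (ALK1), with the co-receptor ENG, is a major entry point to this arm, and TGF-beta 1 can use it beside the TGFBR1 route to SMAD2 and SMAD3. The ID genes are classical direct targets of the BMP SMADs. Their products have a helix-loop-helix domain without a DNA-binding region and hold E proteins such as TCF3 off DNA.

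Values are log2 expression made by RMA, in which a difference of 1 is a doubling. RMA subtracts background and gives the probe intensities of the arrays 1 common distribution. It then combines the probes of each set into 1 value, and these values need not share 1 distribution. RMA gives no detection call. Array medians lay between 5.88 and 5.92 and the 25th percentiles between 4.52 and 4.60, and these serve below to mark a low level. Precision is limited by the 3 arrays of each group. Basal 3 stood apart from the other basal arrays: across probe sets it correlated at 0.987 with treated 3 and at 0.942 with basal 1. Treated 1 stood apart from the other treated arrays, correlating at 0.977 with treated 2, at 0.975 with treated 3 and at 0.974 with basal 2, while treated 2 and treated 3 correlated at 0.996. For this reason the value on every array is given.

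The labelled cell type was checked with 10 of 11 listed endothelial markers. PECAM1 and CDH5, adhesion molecules of endothelial junctions, read 11.73 to 12.43 and 11.37 to 12.34 over the 6 arrays. KDR, the main VEGF receptor, was low at 4.39 to 5.50, under the array medians, and von Willebrand factor VWF read 5.99 to 6.33. The leukocyte markers PTPRC, ITGAM and CD3E, the pericyte markers RGS5 and KCNJ8 and the fibroblast markers FAP and LUM lay under the 25th percentile on all 6 arrays. Other listed genes of these cell types were higher: the fibroblast collagens COL1A2 and COL3A1 read 10.65 to 12.23 and 10.35 to 10.86. The leukocyte marker CD14 read 6.54 to 7.46 and the pericyte marker CSPG4 6.26 to 6.62, above the array medians.

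In the treated cultures BAMBI was lower, BMP2 was higher and BMP4 was lower, each without overlap between the groups. BAMBI alone passed the test. In cultures measured in bulk, fewer cells of a type and less RNA per cell cannot be told apart. By the higher probe set of each gene, ID1, ID3 and BMPER were low on all 3 treated arrays and also on basal 3. ID2 was low on treated 2 and treated 3 and high on treated 1. Change was tested with limma over all 24016 probe sets, with p-values adjusted by Benjamini-Hochberg and a threshold of 0.05. Of the 10 member probe sets 1 was called lower and 0 higher, where 0.354% of all probe sets were called lower, 0.304% higher and 0.658% in either direction (73 higher and 85 lower, or 57 and 43 after a further quantile normalization). An unadjusted p under 0.05 was reached by 6 of the 10, against 13.7% of all probe sets. The groups did not overlap in 3 of the 10, against 19.2% of all. Of these 3, BAMBI and BMP4 were lower, as were 11.6% of all probe sets, and BMP2 was higher, as were 7.61%. The median change over the 10 was -0.54, beside -0.01 over all probe sets. The members were chosen with earlier results of these data known, so these contrasts with all probe sets describe them and do not test the BMP arm.

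**Figure D1:**
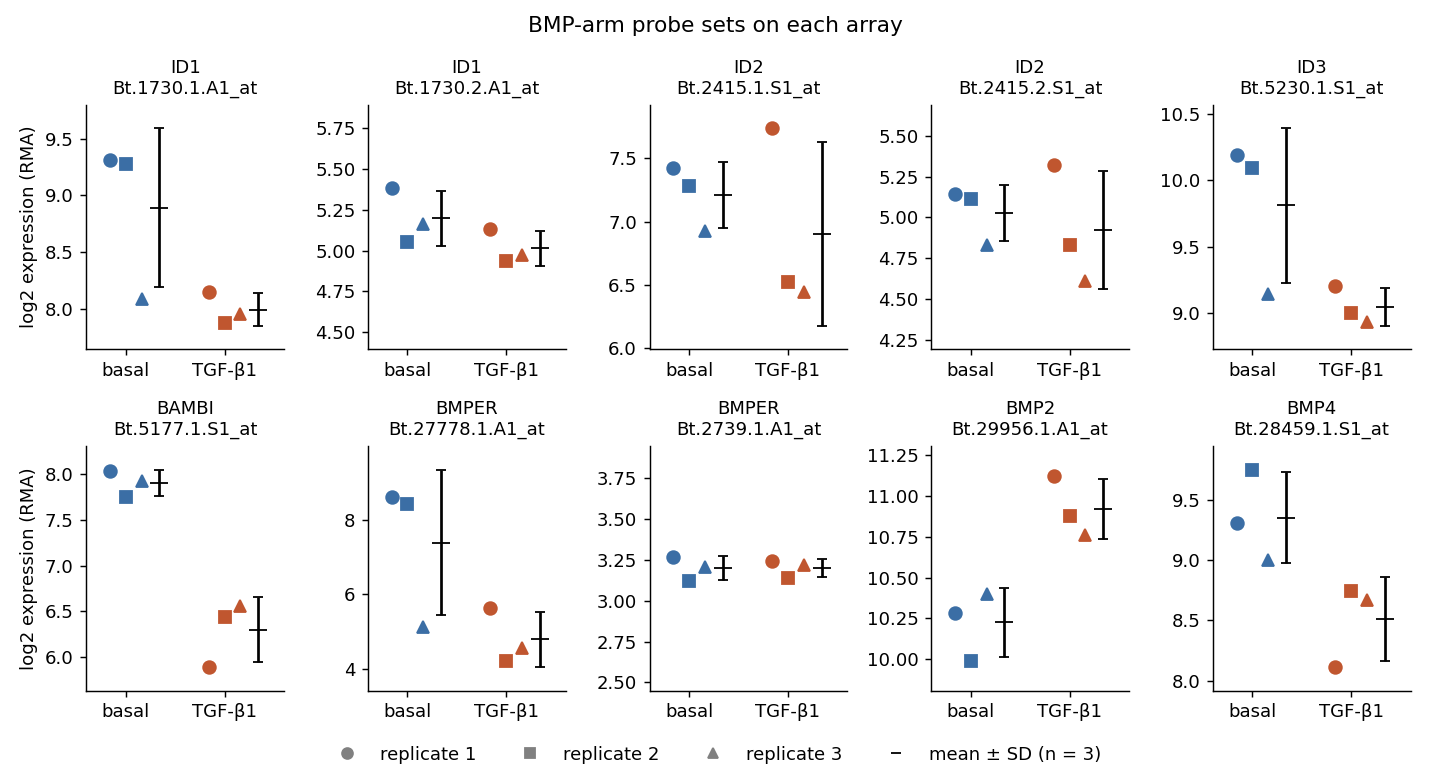
Log2 expression (RMA) of each of the 10 probe sets on each array, with its own vertical axis per panel. Circles, squares and triangles are replicates 1, 2 and 3, blue is basal, orange is treated with TGF-beta 1, and the black bar is the group mean with its SD (n = 3). BAMBI, BMP2 and BMP4 show groups apart, while for ID1, ID3 and the higher BMPER probe set the triangle of basal 3 lies with the treated arrays.

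BAMBI is a membrane protein shaped like a type I receptor that lacks the kinase domain, and so binds into receptor complexes without passing the signal on. Its probe set (Bt.5177.1.S1_at, Entrez gene 530147) read 8.03, 7.74 and 7.93 on basal 1 to 3 and 5.89, 6.44 and 6.56 on treated 1 to 3. All 3 basal arrays lay above all 3 treated arrays, with a gap of 1.19 log2 between the groups. The mean went from 7.90 ± 0.15 to 6.30 ± 0.36 (SD, n = 3 each). BAMBI fell 3.04-fold (95% interval 2.18 to 4.24), a change of -1.60 with an SE of 0.20 and a limma adjusted p = 0.0454. In an exact two-sided permutation test of this single gene p was 0.1, the smallest that 3 arrays against 3 allow.

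The BAMBI call sat close to the threshold. Left-out arrays gave changes between -1.73 and -1.40. The limma adjusted p was 0.141 without basal 1, 0.22 without basal 2, 0.0699 without treated 1, 0.248 without treated 2 and 0.143 without treated 3, and 0.0232 without basal 3. After a further quantile normalization it was 0.0514, and with 1 probe set a gene and adjustment over genes, a fit that called 1.72% of genes, 0.0321. Among the higher probe sets of the 7 genes, basal 3 was least displaced for BAMBI, at 0.04 above the mean of basal 1 and basal 2. The lowest BAMBI value was on treated 1, below both other treated arrays.

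BMPER is a secreted protein with cysteine-rich repeats that binds BMPs outside the cell and can hold back or favour their signal, and endothelial cells are a known source of it. The higher of its probe sets (Bt.27778.1.A1_at, Entrez gene 534101) had the widest range of all members, 4.39 log2 over the 6 arrays. It read 8.60 and 8.43 on basal 1 and basal 2, 5.14 on basal 3, and 5.63, 4.21 and 4.56 on treated 1 to 3. Basal 3 lay below treated 1, so the groups overlapped, and only basal 1 and basal 2 were above the array medians. On average it went from 7.39 ± 1.95 to 4.80 ± 0.74 (SD, n = 3 each), a change of -2.59 with an SE of 0.99 and a 95% interval of -5.01 to -0.16. This did not pass (limma adjusted p = 0.331). Without basal 3 it stood at -3.71 and passed (limma adjusted p = 0.0159), and over the alternatives the adjusted p reached 0.72.

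The other BMPER probe set (Bt.2739.1.A1_at) read 3.12 to 3.27 on the basal arrays and 3.14 to 3.25 on the treated arrays. It was the 1 member probe set under the 25th percentile on all 6 arrays. Its change was 0.0026 with a 95% interval of -0.21 to 0.21. The probe sets of BMPER thus differed, and the lower of them spanned 0.15 log2 over the 6 arrays. It read 3.27 and 3.12 even on basal 1 and basal 2, where the higher read 8.60 and 8.43. Whether it responds to the transcript was not tested, so its flat values do not count clearly against a change.

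BMP2 and BMP4 are closely related ligands that bind the same type I receptors. BMP2 (Bt.29956.1.A1_at, Entrez gene 615037) read 10.28, 9.99 and 10.40 on basal 1 to 3 and 11.12, 10.88 and 10.76 on treated 1 to 3. All treated arrays lay above all basal arrays, by 0.36 at the nearest. The mean went from 10.23 ± 0.21 to 10.92 ± 0.19 (SD, n = 3 each). The change of 0.69 (SE 0.15, 95% interval 0.32 to 1.07), or 1.62-fold, did not pass the threshold (limma adjusted p = 0.124). It passed without basal 3, at 0.78 (limma adjusted p = 0.0457), and reached 0.372 over the alternatives.

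BMP4 (Bt.28459.1.S1_at, Entrez gene 407216) read 9.30, 9.75 and 9.00 on basal 1 to 3 and 8.11, 8.75 and 8.67 on treated 1 to 3. Here all treated arrays lay below all basal arrays, by 0.25 at the nearest. The mean went from 9.35 ± 0.38 to 8.51 ± 0.35 (SD, n = 3 each), a change of -0.84 (SE 0.25, 95% interval -1.46 to -0.22) that did not pass (limma adjusted p = 0.226). It did not pass with any array left out either, with a lowest limma adjusted p of 0.0666 without basal 3.

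The ligands thus lay on opposite sides, BMP2 higher and BMP4 lower on the treated arrays, though neither passed the test. The difference of BMP2 minus BMP4 on the same array was 0.98, 0.24 and 1.41 on basal 1 to 3 and 3.01, 2.13 and 2.09 on treated 1 to 3. It did not overlap between the groups and was 1.53 log2 larger in treated cultures. The exact two-sided permutation p was 0.1, the smallest possible here, and 0.233 adjusted over the 21 pairs of members. Several other pairs were apart with the same permutation p, and BMPER minus BMP2 changed by more (-3.28). The contrast was thus not particular to the ligands. Such a difference between probe sets measures unequal change, and not the ratio of the ligands. With 0.1 as its smallest p this test could not have reached 0.05, so unequal change of BMP2 and BMP4 was not shown.

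**Figure D2:**
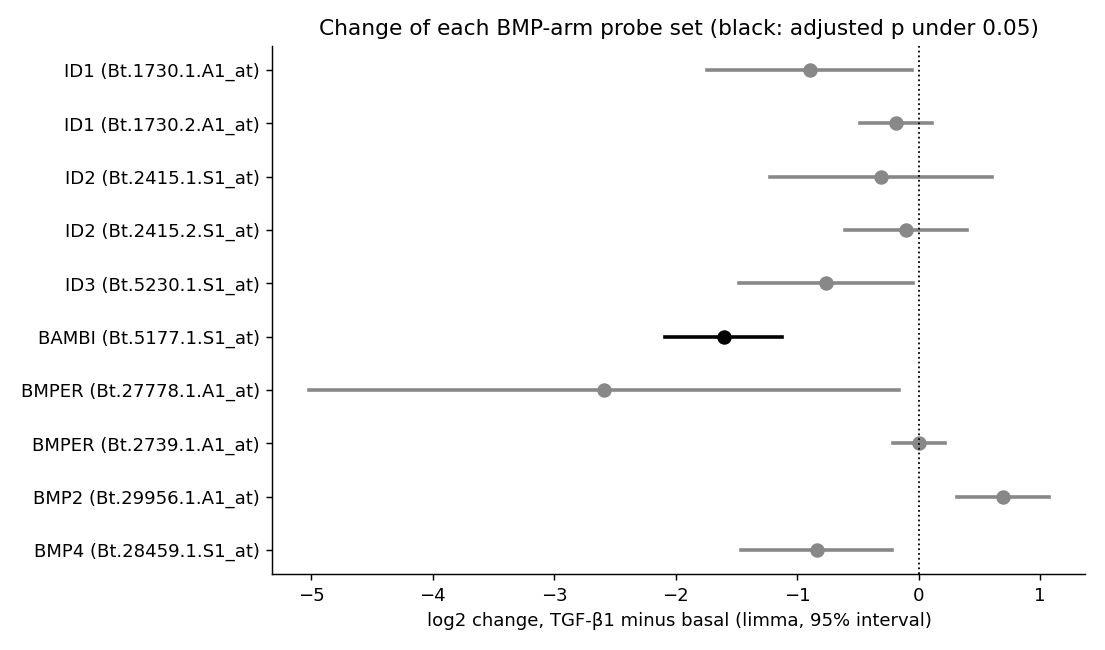
Change of each of the 10 probe sets in log2 units, treated minus basal, as limma estimated it from 6 arrays, with the 95% interval as a line. BAMBI, in black at -1.60, is the 1 probe set with an adjusted p under 0.05, and BMPER at -2.59 has the widest interval, from -5.01 to -0.16.

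ID1 is the member most often used as a readout of BMP signalling in endothelium. Its higher probe set (Bt.1730.1.A1_at, Entrez gene 497011) read 9.31 and 9.28 on basal 1 and basal 2 and 8.09 on basal 3, against 8.15, 7.88 and 7.96 on treated 1 to 3. The level on basal 3 lay between those of treated 1 and treated 3, so the groups overlapped. Mean ID1 expression went from 8.89 ± 0.70 to 8.00 ± 0.14 (SD, n = 3 each), a change of -0.90 with an SE of 0.34 and a 95% interval of -1.74 to -0.05. This did not pass (limma adjusted p = 0.333, exact permutation p = 0.2). The second ID1 probe set (Bt.1730.2.A1_at) was under the array medians, at 5.38, 5.05 and 5.16 on the basal and 5.13, 4.93 and 4.97 on the treated arrays. It had the same sign with a change of -0.19 (95% interval -0.48 to 0.11).

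ID3 (Bt.5230.1.S1_at, Entrez gene 538690) had a pattern near that of ID1, though its lowest value was on treated 3 and that of ID1 on treated 2. It read 10.19 and 10.10 on basal 1 and basal 2, 9.14 on basal 3, and 9.21, 9.00 and 8.94 on treated 1 to 3. Again basal 3 lay below treated 1. Mean ID3 expression went from 9.81 ± 0.58 to 9.05 ± 0.14 (SD, n = 3 each), a change of -0.76 (SE 0.29, 95% interval -1.48 to -0.05, limma adjusted p = 0.332). After each gene's own mean was subtracted, ID1 and ID3 differed by a root mean square of 0.11 log2 over the 6 arrays, the smallest of the 21 pairs of members. The next was 0.36, between ID3 and BMP4. Genes outside the member list were closer still, with DOCK6 at 0.07 from ID1 and LOC511516 at 0.03 from ID3. The likeness was thus not particular to this pair.

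Without basal 3, ID1 stood at -1.30 and ID3 at -1.10 and both passed (limma adjusted p = 0.0104 and 0.0149). Over all alternatives their adjusted p ran to 0.716 and 0.713. In that fit 4 member probe sets were called lower and 1 higher, where 5.36% of all probe sets were called lower, 3.02% higher and 8.38% in either direction. The lower ones were ID1, ID3, BAMBI and the higher BMPER probe set, and the higher one was BMP2. The basal level then rests on basal 1 and basal 2 alone.

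ID2 was high on treated 1, where ID1 and ID3 were low. Its higher probe set (Bt.2415.1.S1_at, Entrez gene 505025) read 7.43, 7.28 and 6.92 on basal 1 to 3 and 7.74, 6.52 and 6.44 on treated 1 to 3. Treated 1 held the highest value of all 6 arrays, while treated 2 and treated 3 held the lowest. On average it went from 7.21 ± 0.26 to 6.90 ± 0.73 (SD, n = 3 each), a change of -0.31 with a 95% interval of -1.22 to 0.60 (limma adjusted p = 0.782). The second ID2 probe set (Bt.2415.2.S1_at) read 5.14, 5.11 and 4.83 on the basal and 5.32, 4.83 and 4.61 on the treated arrays, again with treated 1 highest, and its change was -0.11 (95% interval -0.61 to 0.40). Without treated 1 the higher probe set stood at -0.73 and still did not pass (limma adjusted p = 0.258). A difference between the changes of ID1 and ID2 was not shown: ID1 minus ID2 averaged 1.68 ± 0.45 on the basal and 1.09 ± 0.59 on the treated arrays (SD, n = 3 each, exact permutation p = 0.3).

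**Figure D3:**
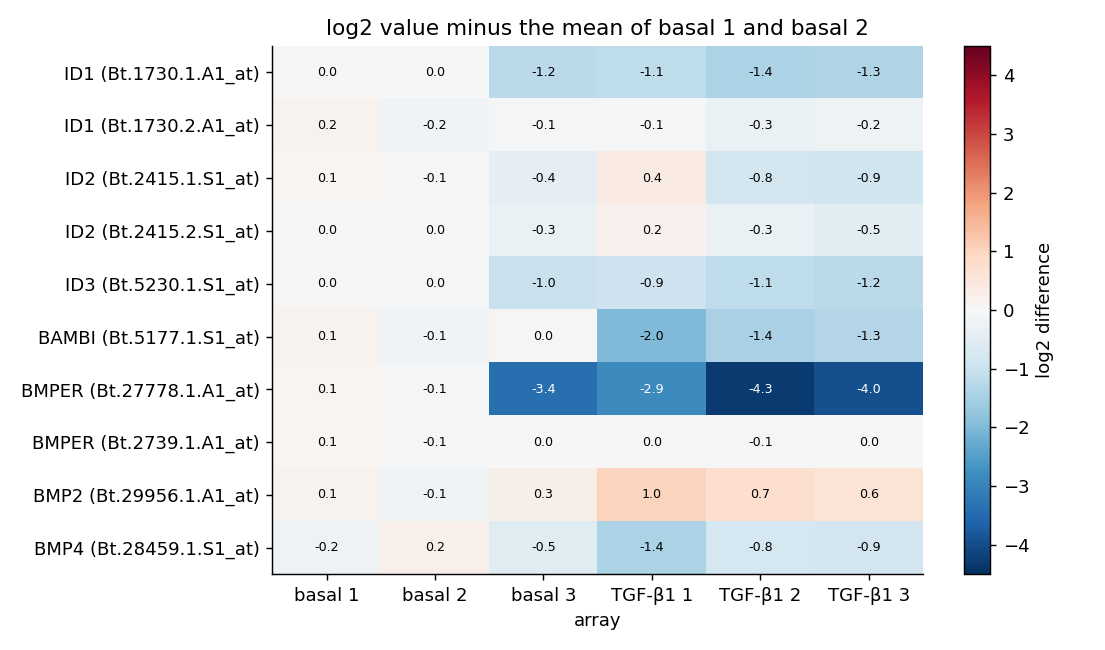
Each probe set's log2 value on each array minus its mean over basal 1 and basal 2, as colour and as a printed value. Basal 3 resembles the treated arrays for ID1, ID3 and the higher BMPER probe set (-1.2, -1.0 and -3.4) and stays at 0.0 for BAMBI, and treated 1 is the lowest array for BAMBI and BMP4.

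The position of basal 3 sorted the members. From the mean of basal 1 and basal 2 towards the treated mean, basal 3 had gone 92.8% of the way for ID1, 91.3% for ID3 and 90.9% for the higher BMPER probe set. For the higher ID2 probe set it was 95.1% of a distance of only -0.45. The corresponding share was 52.1% for BMP4, 33.9% for BMP2 and -2.34% for BAMBI, where basal 3 lay between basal 1 and basal 2. Over the whole table, 1890 probe sets differed by at least 1 log2 between the treated mean and the mean of basal 1 and basal 2. Basal 3 lay nearer the treated mean in 77.7% of them, with a median of 93.6% of the way. ID1, ID3 and BMPER were therefore like most probe sets with such a difference, and BAMBI was among the 22.3% in which basal 3 lay nearer the other basal arrays. BMP4 also had such a difference (-1.02), and at 52.1% its basal 3 value lay slightly nearer the treated mean. Treated 1 minus the mean of basal 1 and basal 2 was -1.14 for ID1, -0.94 for ID3 and -2.88 for BMPER. The mean of treated 2 and treated 3 minus basal 3 was -0.17 for ID1, -0.18 for ID3, -0.44 for the higher ID2 probe set, -0.75 for BMPER and -1.43 for BAMBI. The same difference was -0.29 for BMP4 and 0.42 for BMP2. Against basal 3 alone, those treated arrays lay nearest its level for ID1 and ID3 among the higher probe sets of the members.

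Endothelial marker levels differed between the groups too. Of the 10 measured, 6 lay lower on all treated arrays and 1 higher, against 23.3% of all genes without overlap. Over all genes 1.02% were called and 18.4% had an unadjusted p under 0.05. CLDN5 alone was called, at -3.17 (limma adjusted p = 0.0474). The mean log2 level of the list ran from 9.38 to 9.93 on the basal arrays, lowest on basal 3, and from 9.09 to 9.28 on the treated arrays. The mean of 7 smooth muscle markers ran from 6.64 to 6.70 on the basal and from 6.91 to 7.06 on the treated arrays, with TAGLN the 1 marker called (2.19, limma adjusted p = 0.0273). The other 6 smooth muscle markers stood between -0.26 and 0.20, each with overlapping groups. Of 5 erythroid markers the mean ran from 4.51 to 4.71 and from 4.74 to 5.10, with 0 called by limma. EPB42, a protein of the red cell membrane skeleton, stood at 1.17 (limma adjusted p = 0.161) and was the 1 erythroid marker at an unadjusted p under 0.05, and the other 4 stood between -0.20 and 0.16. The mean levels of the fibroblast, pericyte and leukocyte lists overlapped between groups. Of their 7, 4 and 7 measured markers 0 were called by limma, and 2, 0 and 0 had an unadjusted p under 0.05. The part of these differences in the member results was not tested.

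**Figure D4:**
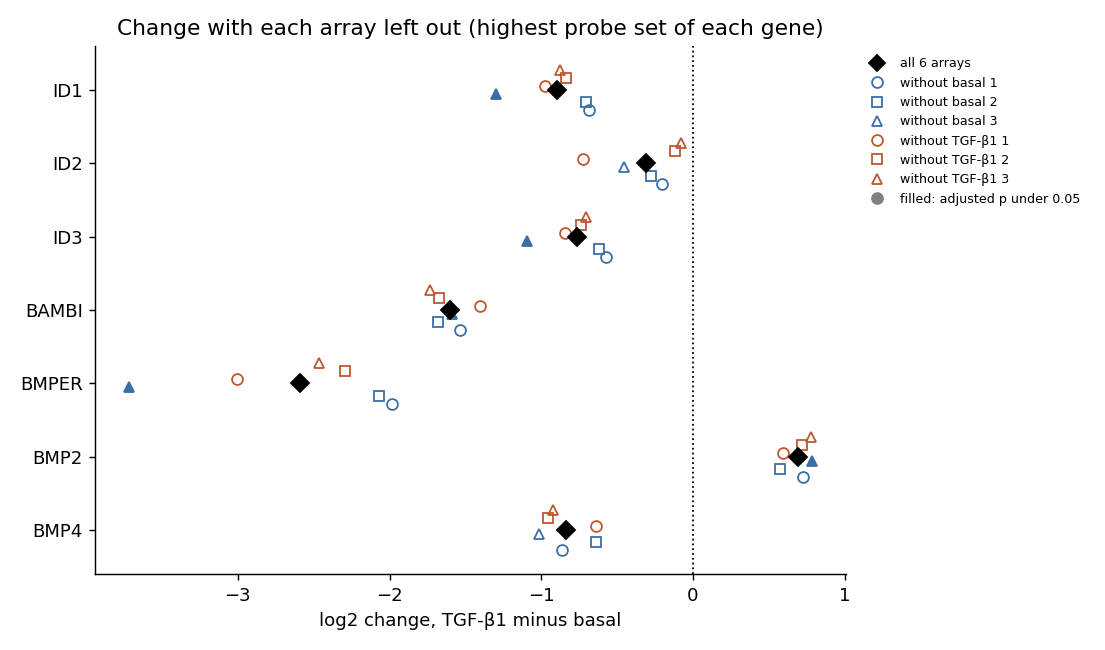
Change of the higher probe set of each gene in log2 units with all 6 arrays (black diamond) and with each array left out in turn (blue for a basal, orange for a treated array, shaped by replicate number). Filled symbols have an adjusted p under 0.05. Leaving out basal 3 moves BMPER from -2.59 to -3.71 and ID1 from -0.90 to -1.30, and BAMBI is called in that fit and in none with another array left out.

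Around the members, 40 of 84 listed genes of the BMP arm were measured, each represented by its highest probe set. None passed the threshold in either direction by limma, where 1.02% of all genes did. An unadjusted p under 0.05 was reached by 5 of them (12.5%, against 18.4% of all genes). The groups were apart in 9 (22.5%, against 23.3%), and the median change was -0.08, beside -0.03 over all genes. These shares were under those of the whole table. Of the genes named below, BMPR1A, GDF7, MGP, SMAD5, TMEM100 and MYOD1 had at least 1 other probe set of the opposite sign.

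Of the receptors and co-receptors 8 were measured and the groups were apart in 6 (75%, against 23.3% of all genes). Of these 6, 3 were higher and 3 lower in treated cultures. BMPR2, the main type II receptor for BMPs, read 7.08, 7.30 and 7.39 on the basal and 7.77, 7.62 and 7.64 on the treated arrays. Its change was 0.42 (SE 0.11, limma adjusted p = 0.177), and both its other probe sets had the same sign. ENG, the co-receptor endoglin, stood at 0.99 (SE 0.38, limma adjusted p = 0.333) and ACVRL1 at -0.89 (SE 0.34, limma adjusted p = 0.336). On basal 3 ENG had its lowest value, 8.43 against 9.67 and 9.69 on the other basal arrays, and ACVRL1 read 8.74 there, beside 8.58 to 8.72 on the treated arrays. Without basal 3 ACVRL1 passed (-1.28, limma adjusted p = 0.0124), while ENG was smaller and did not (0.58, limma adjusted p = 0.143). BMPR1A and BMPR1B, the type I receptors that BMP2 and BMP4 bind, were under the 25th percentile on all 6 arrays. Both were among the 6 with groups apart, at changes of only -0.08 and 0.25, and ACVR1, also among them, stood at -0.17.

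Of the other BMP and GDF ligands 6 were measured and no groups were apart, with 0 at an unadjusted p under 0.05 by limma. GDF6 stood at -0.23, BMP7 at 0.11 and GDF7 at 0.08. Among 5 extracellular antagonists and modulators, FSTL3, a follistatin-like protein that binds activins and related ligands, lay higher on all treated arrays and stood at 0.67 (SE 0.28, limma adjusted p = 0.385). The matrix protein MGP and the BMP-binding membrane protein CRIM1 stood at -0.16 and -0.08.

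Of 11 SMADs and intracellular regulators, STUB1, a ubiquitin ligase, stood at -0.39 (SE 0.14) and CTDSP1, a phosphatase that acts on SMADs, at -0.45 (SE 0.19). SMAD5, which carries the BMP signal to the nucleus, had the widest spread of them. It read 5.00, 6.41 and 7.27 on basal 1 to 3 and 6.79, 8.32 and 8.28 on treated 1 to 3, with a change of 1.57 (95% interval -0.11 to 3.25, limma adjusted p = 0.399). Its 1 other probe set did not share the sign. The groups overlapped, since treated 1 lay below basal 3.

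Of 6 other endothelial targets of BMP or ALK1 signalling, LFNG, a glycosyltransferase that modifies Notch receptors, came nearest to a call. It read 9.05, 8.76 and 8.47 on the basal and 7.16, 7.45 and 7.59 on the treated arrays, a change of -1.36 (SE 0.19) with a limma adjusted p = 0.0514. Like BAMBI it had its lowest value on treated 1. With 1 probe set a gene and adjustment over genes it was called (limma adjusted p = 0.0376). HEY1 and TMEM100, transcriptional and membrane targets of ALK1, stood at -0.21 and -0.19. Of 4 partners of the ID proteins TCF3 stood at -0.44 (SE 0.20, limma adjusted p = 0.422), TCF4 at -0.24 and MYOD1 at 0.03, and none had groups apart. Without basal 3, 4 of the 40 genes were called, all lower: ACVRL1, LFNG, STUB1 and CTDSPL, where 12.5% of all genes were called in either direction.

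**Figure D5:**
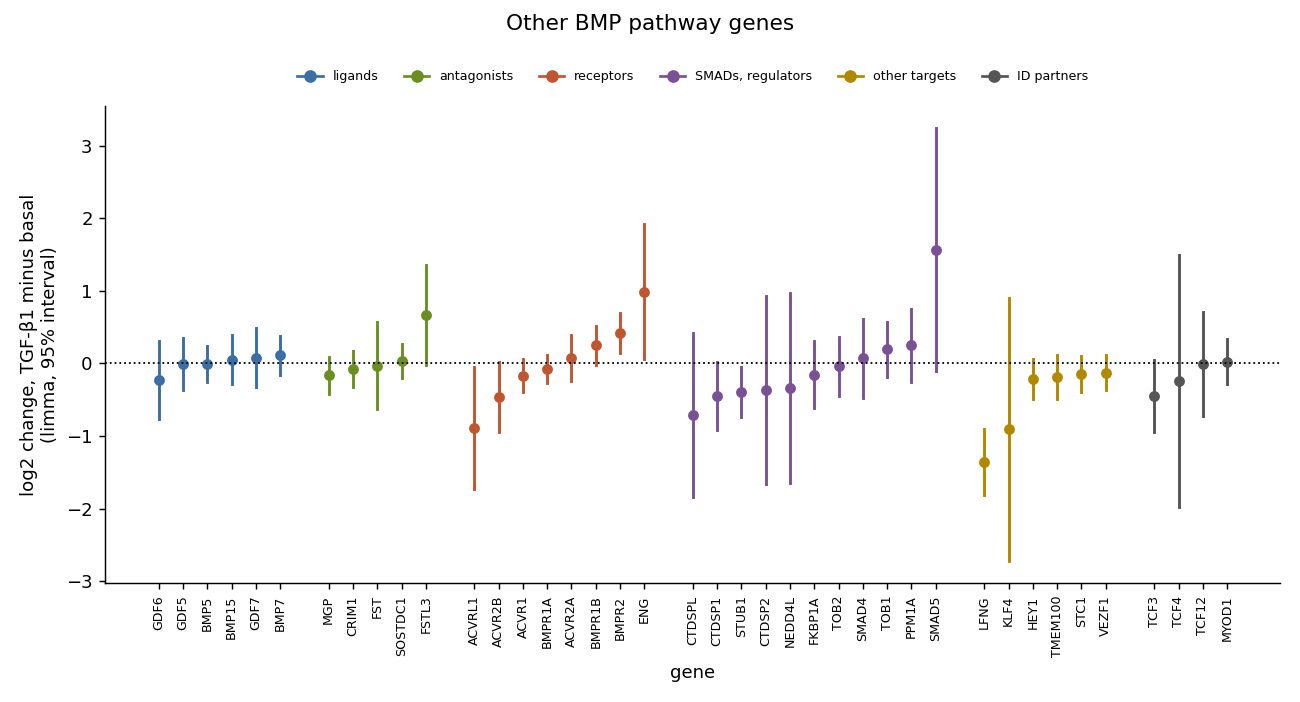
Change of the 40 measured genes of the BMP arm other than the members, in log2 units, treated minus basal, with 95% intervals from limma, coloured by role and ordered by change within each role. LFNG at -1.36 and SMAD5 at 1.57 are the outermost, and no gene passed the adjusted threshold of 0.05.

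Likeness to each member was measured as the root mean square difference over the 6 arrays after subtracting each gene's own mean, among 3579 genes with an SD of at least 0.3 log2. The 3 genes most like BAMBI were GALM, NUPR2 and WNT11 (0.13, 0.18 and 0.19), with changes of -1.53, -1.71 and -1.39. GALM, galactose mutarotase, was called (limma adjusted p = 0.0411), and WNT11, a Wnt ligand, was not (0.0525). For ID1 they were DOCK6, PACSIN3 and PRCP (each 0.07), and for ID3 LOC511516, SLC25A1 and GSN (0.03, 0.06 and 0.06). None of these 6 was called by limma, and their changes ran from -0.96 to -0.78. For BMP2 they were CSTF2, ATF3 and VPS37A (0.07, 0.10 and 0.10), and for BMP4 TIMP1, GGACT and LOC615809 (0.11, 0.16 and 0.16). ID2 had ROGDI, ROR2 and PTHLH (0.13, 0.16 and 0.17). BMPER had no near match: ECM1, C16H1orf115 and CEACAM1 differed from it by 0.58, 0.59 and 0.63, beside an SD of 1.94 for BMPER itself. These distances describe 6 arrays, among which the split of basal 3 from basal 1 and basal 2 is shared by many genes.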

How the data were processed

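RNA of 3 basal and 3 treated samples was hybridised to an Affymetrix bovine array, 1 array each. The authors deposited log2 values, and the submitters' processing notes name RMA and affy without versions. After 112 control probe sets were left out, 24016 remained, of which the platform annotation gave 13292 a single symbol. All 7 members matched the RefSeq gene table (ARS-UCD2.0) by gene identifier. No coordinates are given, since the annotation names no build. All 6 columns were matched to samples by label and 0 were left unused.

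Treated and basal arrays were compared in R 4.3.3 by limma 3.58.1 (lmFit, then eBayes, with a group term, 4 residual and 1.97 prior degrees of freedom). P-values were adjusted across the 24016 probe sets by Benjamini-Hochberg, and no filter on low values was used. The fit was tested on simulated data with independent normal noise for each probe set. Those data leave out the shift of basal 3 shared by many probe sets, so they do not bear on calls made under it. Standard errors and 95% intervals are those of this fit. Each listed gene was read from its highest probe set by mean over all arrays. The members and lists were chosen with earlier results of these data known. From each list the 3 genes with the smallest unadjusted p were named, with any past the threshold, and for each member the 3 most alike genes. KDR, VWF and other markers, and CTDSPL, were named after their values were seen. Alternatives were other normalization, features, variance models, filters and thresholds, a replicate block and leaving out each array. Figures were drawn with matplotlib 3.10.9.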

Additional observations from a re-analysis of the deposited data

How the results depend on the processing

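The higher probe set of each member kept its direction with each array left out, after centring on array medians, after a further quantile normalization and as the mean of a gene's probe sets. The other alternatives leave the estimate as it is by construction and bear on the calls alone. Where the count of member probe sets called lower (1 with all arrays) changed, it was 0 after a further quantile normalization, with a replicate block and at a threshold of 0.01, and ran from 0 to 4 with each array left out, while the count called higher ran from 0 to 1. For other BMP pathway genes called lower (0 with all arrays) it was 1 with 1 probe set a gene, 1 above the 25th percentile and 1 above the median of mean expression, 1 at a threshold of 0.1, and 0 to 4 with each array left out. Over all probe sets (73 higher, 85 lower) there were 43 lower after quantile normalization, 34 lower by limma-trend, 226 higher and 317 lower at 0.1, 1 and 1 at 0.01, and 0 to 725 higher and 1 to 1287 lower with each array left out. With the replicate number as a block 0 were higher and 0 lower, and BAMBI stood at -1.60 with a limma adjusted p of 0.113. Same-numbered arrays deviated from their group means with correlations of 0.67, -0.45 and 0.69. Basal 3 and treated 2, with unlike numbers, reached 0.65, so these correlations cannot decide whether the numbers mark pairs. The labels state no pairs, and the main fit used none. The lower BMPER probe set, near 0, stood at -0.0094 after centring and from -0.035 to 0.038 with each array left out, and the lower ID2 probe set from -0.30 to 0.050. The mean of a gene's probe sets gave -1.29 for BMPER and -0.54 for ID1. The cause of these shifts was not tested. No probe set has a detection call, which limits the lower BMPER probe set, under the 25th percentile on all 6 arrays. The higher BMPER probe set read 4.21 and 4.56 on treated 2 and treated 3, near the 25th percentiles. The size of its change rests in part on such low values.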
